A study of Mus musculus with 12 samples.

Results

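Claudins are membrane proteins that polymerise into the strands of the tight junction, and their extracellular loops set which ions and how much water pass between epithelial cells. Each nephron segment uses its own combination, so the segment's leak or seal follows from the claudins it makes. In the kidney, Cldn2 and Cldn10 form pores in the proximal tubule, Cldn10, Cldn16 and Cldn19 carry cations in the thick ascending limb of the loop of Henle, Cldn3, Cldn4, Cldn7 and Cldn8 line the distal nephron and collecting duct, and Cldn5 seals endothelium.

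The 10 claudins described here are Cldn2, Cldn3, Cldn4, Cldn5, Cldn6, Cldn7, Cldn8, Cldn10, Cldn16 and Cldn19. They were found by gene name among 24468 gene symbols and 55681 probes of a one-colour Agilent array, which holds 13 probes for them. The probe with the highest mean signal was kept for each gene. A further 14 claudins on the array were used for comparison. All levels are log2 signals relative to the 75th percentile of the same array, so that 0 is that percentile. Levels are compared between arrays within a probe and not between probes.

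RNA came from whole kidneys, dissected free of the ureter, of wild-type ICR mice. The stages were E11.5 (the number counts days of gestation), E13.5, E15.5, then E17.5, and birth (P0). Each had a single array. Another array held ICR E11.5 kidney after 7 days in culture. The organoids combined nephron progenitors and ureteric bud derived from mouse embryonic stem cells (mESC, B6 and 129SV background) with stromal progenitors of wild-type ICR E11.5 kidney. Arrays were run on 3 organoid samples taken right after assembly (day 0) and on 3 taken 7 days into culture (day 7). Kidneys and organoids were cultured on transwells in 50% Matrigel and DMEM/F12 with 10% FBS. The stromal part of the organoids was thus primary kidney tissue, and only the epithelial precursors were made from stem cells.

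Day 0 arrays were dimmer (75th percentile of 126 to 138, against 201 to 287 elsewhere), and 50.6% to 63.2% of probes were well above background. Precision is limited by the number of arrays, since kidney groups had no replicate. Slide 1 held all kidney arrays with day 0 replicates 1 and 2, and slide 2 held day 0 replicate 3 with day 7. Cldn3, Cldn4, Cldn5, Cldn6, Cldn7, Cldn8 and Cldn10 were above background on all 12 arrays, Cldn2 and Cldn19 on 8, and Cldn16 on 5. Summed markers of the proximal tubule (7 genes, in multiples of the 75th percentile) rose from 1.41 at E11.5 to 288 at P0, and those of the thick ascending limb (6 genes) from 0.479 to 91.4.

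Upstream sequence is shown for the claudins of the proximal tubule and thick ascending limb, because these were the members that climbed together over kidney stages. The 250 bases before the annotated transcript start are given 5′ to 3′ on the strand of the gene, from RefSeq (GRCm38.p6), which held windows for 9 of the 10 members. Capitals mark matches, on either strand, to 7 motifs of factors active in epithelia or of core promoters. The core letters of the site for HNF1, a tubule transcription factor, were taken as GTTAAT. The site of HNF4 was searched as CAAAGTCCA, that of grainyhead-like factors as AACCNGTT and that of ETS factors as CCGGAAGT. The GC box bound by Sp1 was searched with the letters GGGCGG. The TATA box of core promoters was searched with the letters TATAAA. The site of CDX homeobox factors was searched with the letters TTTATG. Cldn10 has 2 annotated starts far apart, at chr14:118787621-118787870 and chr14:118854700-118854949, both on the plus strand, and they are shown in that order. Cldn2 lies at chrX:139800558-139800807 (plus), Cldn16 at chr16:26462885-26463134 (plus) and the first of the overlapping windows of Cldn19 at chr4:119255191-119255440 (plus).
Cldn2: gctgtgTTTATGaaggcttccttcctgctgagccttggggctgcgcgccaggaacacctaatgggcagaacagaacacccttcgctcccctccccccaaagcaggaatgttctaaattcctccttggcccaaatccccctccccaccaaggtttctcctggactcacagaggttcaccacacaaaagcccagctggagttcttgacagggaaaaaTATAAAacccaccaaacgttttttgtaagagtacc
Cldn10, upstream start: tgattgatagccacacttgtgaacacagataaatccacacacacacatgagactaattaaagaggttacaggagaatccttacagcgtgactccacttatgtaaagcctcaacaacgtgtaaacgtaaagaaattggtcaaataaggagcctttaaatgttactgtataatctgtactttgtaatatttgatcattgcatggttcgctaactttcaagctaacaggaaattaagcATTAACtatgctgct
Cldn10, downstream start: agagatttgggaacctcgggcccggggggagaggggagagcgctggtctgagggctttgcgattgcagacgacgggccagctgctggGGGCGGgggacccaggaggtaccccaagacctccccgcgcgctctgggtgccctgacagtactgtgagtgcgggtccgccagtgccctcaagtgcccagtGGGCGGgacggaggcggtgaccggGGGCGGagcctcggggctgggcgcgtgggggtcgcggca
Cldn16: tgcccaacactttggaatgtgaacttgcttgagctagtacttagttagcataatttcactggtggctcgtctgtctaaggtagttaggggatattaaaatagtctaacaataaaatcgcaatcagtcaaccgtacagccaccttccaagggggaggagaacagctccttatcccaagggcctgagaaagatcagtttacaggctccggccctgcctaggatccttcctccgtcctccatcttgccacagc
Cldn19: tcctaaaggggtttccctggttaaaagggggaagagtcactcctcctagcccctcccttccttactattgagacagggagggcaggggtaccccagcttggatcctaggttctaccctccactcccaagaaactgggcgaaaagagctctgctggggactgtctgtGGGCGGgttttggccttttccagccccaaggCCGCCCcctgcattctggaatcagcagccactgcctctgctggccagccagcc

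None of the motifs was in all 5 windows. Cldn2 had a TATA box 35 to 30 bases before the start, a motif held somewhere by 12.4% of all 32851 windows, and a CDX match, held by 10.8%. The upstream start of Cldn10 had a core HNF1 match 15 to 10 bases before it (6.43% of windows), whereas the downstream start had 3 GC boxes. Cldn19 had 2 GC boxes, a motif in 32.7% of windows, and Cldn16 had none of the 7 motifs in this window. HNF4 letters (0.384% of windows) were in no window of the members, the grainyhead-like motif (1.79%) was in that of Cldn5, and the ETS motif (2.88%) was in 1 of the 2 windows of Cldn7. These matches describe the letters only. The array has 1 probe for Cldn10, and which of its transcript variants it detects was not determined here.

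Over kidney stages the pore-forming claudins of the proximal tubule and thick ascending limb rose steeply, while the claudins of the distal nephron and the endothelial one moved little. Cldn2, the cation and water pore of the proximal tubule, stood at -7.37 at E11.5, where it was not above background, then at -2.83 at E13.5, 1.21 at E15.5, 2.91 at E17.5 and 3.74 at P0. Every step was upward on the kept probe, and the level at P0 was at least 531-fold that at E11.5. The fitted slope was 2.80 ± 0.38 (SE) log2 units per stage, with an adjusted p of 0.0134 (limma over 5 arrays, 1 per stage). Without the E17.5 array the slope was 2.71 and the adjusted p 0.0506. A second, dimmer Cldn2 probe was at -7.36, -7.33, -2.19, -0.59 and -0.06 over the same stages. It was nearly level from E11.5 to E13.5, and its P0 value was 7.29 above that of E11.5. The mean of both probes gave a slope of 2.46 (adjusted p = 0.0112, limma).

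Cldn10, whose isoforms serve as an anion pore in the proximal tubule and a cation pore in the thick ascending limb, was at -3.71, -2.62, 1.07, 2.70 and 3.79 over the same stages. It was above background at each of them, and P0 was 182-fold above E11.5. The steepest step, 12.9-fold, lay between E13.5 and E15.5. The slope was 2.03 ± 0.20 per stage (adjusted p = 0.00849).

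Cldn16 and Cldn19 form the paracellular route for calcium and magnesium in the thick ascending limb, and loss of either causes renal magnesium wasting. Cldn16 was not above background at E11.5 (-7.34) and E13.5 (-5.51), then stood at -1.49, -0.44 and 0.16. Its slope was 2.01 ± 0.28 per stage (adjusted p = 0.0135), and the P0 level was at least 44.4-fold that of E11.5. The adjusted p was 0.0537 without the E11.5 array and 0.0508 without E17.5. Cldn19 was not above background at E11.5 (-4.97) and was at -3.91, -1.85, -0.31 and 0.30 thereafter. It rose by 1.41 ± 0.11 per stage (adjusted p = 0.00727), to at least 38.5-fold at P0. Both genes rose at each step from E13.5 on.

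The claudins of the distal nephron and collecting duct were present from the first stage on. Cldn8, a cation barrier of the collecting duct, was at 2.39, 2.98, 3.35, 3.60 and 3.48 from E11.5 to P0. Its slope of 0.28 ± 0.07 passed the test (adjusted p = 0.0474), but lost the call when any 1 of the 5 arrays was left out: the adjusted p was 0.153 without E11.5, 0.0766 without E13.5, 0.0864 without E15.5, 0.132 without E17.5 and 0.0803 without P0. It was also lost with scaling to the median (0.119) and with no background filter (0.0639). Cldn7, a distal claudin that limits paracellular chloride and sodium flux, was at 2.72 at E11.5 and between 3.69 and 3.86 at the other 4 stages, with a slope of 0.24 ± 0.09 (adjusted p = 0.107). That slope passed with quantile normalization (0.30, adjusted p = 0.0451) and with the mean of both probes (0.42, adjusted p = 0.0395).

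Cldn3, a sealing claudin, and Cldn4, which seals against cations, had slopes near 0. Cldn3 was at 1.77, 2.54, 2.10, 1.94 and 1.99, with a slope of -0.02 ± 0.09 (adjusted p = 0.906). Cldn4 was at -0.72, 0.26, -0.36, -0.42 and -0.39, with a slope of 0.00 ± 0.11 (adjusted p = 0.989). Both had their highest fresh-kidney level at E13.5. The sign of neither slope was stable when arrays were left out.

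Cldn5, the endothelial claudin, was at 2.58, 3.63, 3.96, 3.73 and 3.60, with a slope of 0.21 ± 0.13 (adjusted p = 0.248). Cldn6, a claudin of embryonic and immature epithelia, was at 0.26, 1.45, 1.55, 1.62 and 1.08, with a slope of 0.18 ± 0.15 (adjusted p = 0.384). For both, the lowest fresh-kidney level was that of E11.5, and without that array the slopes were -0.03 and -0.11.

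In the stage series 5 of 10 members rose and 0 fell, against 12.5% of 19031 genes that rose and 14.7% that fell. With 1 array left out, 4 rose without E13.5, E15.5 or P0 (9.84%, 8.95% and 2.23% of genes). It was 3 without E11.5 (10.8%) and 2 without E17.5 (4.39%). The median slope of the members was 0.26, and that of all genes was -0.05. Markers of the segments moved along the same axis: 6 of 7 proximal tubule markers and 4 of 6 of the thick ascending limb rose. With normexp background correction, which compresses dim signals, the slopes of Cldn2, Cldn16 and Cldn19 were 1.63, 0.73 and 0.63 and kept their calls. Because these are bulk samples, more cells of a segment and more RNA per cell cannot be told apart, here or in the comparisons that follow.

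**Figure D1:**
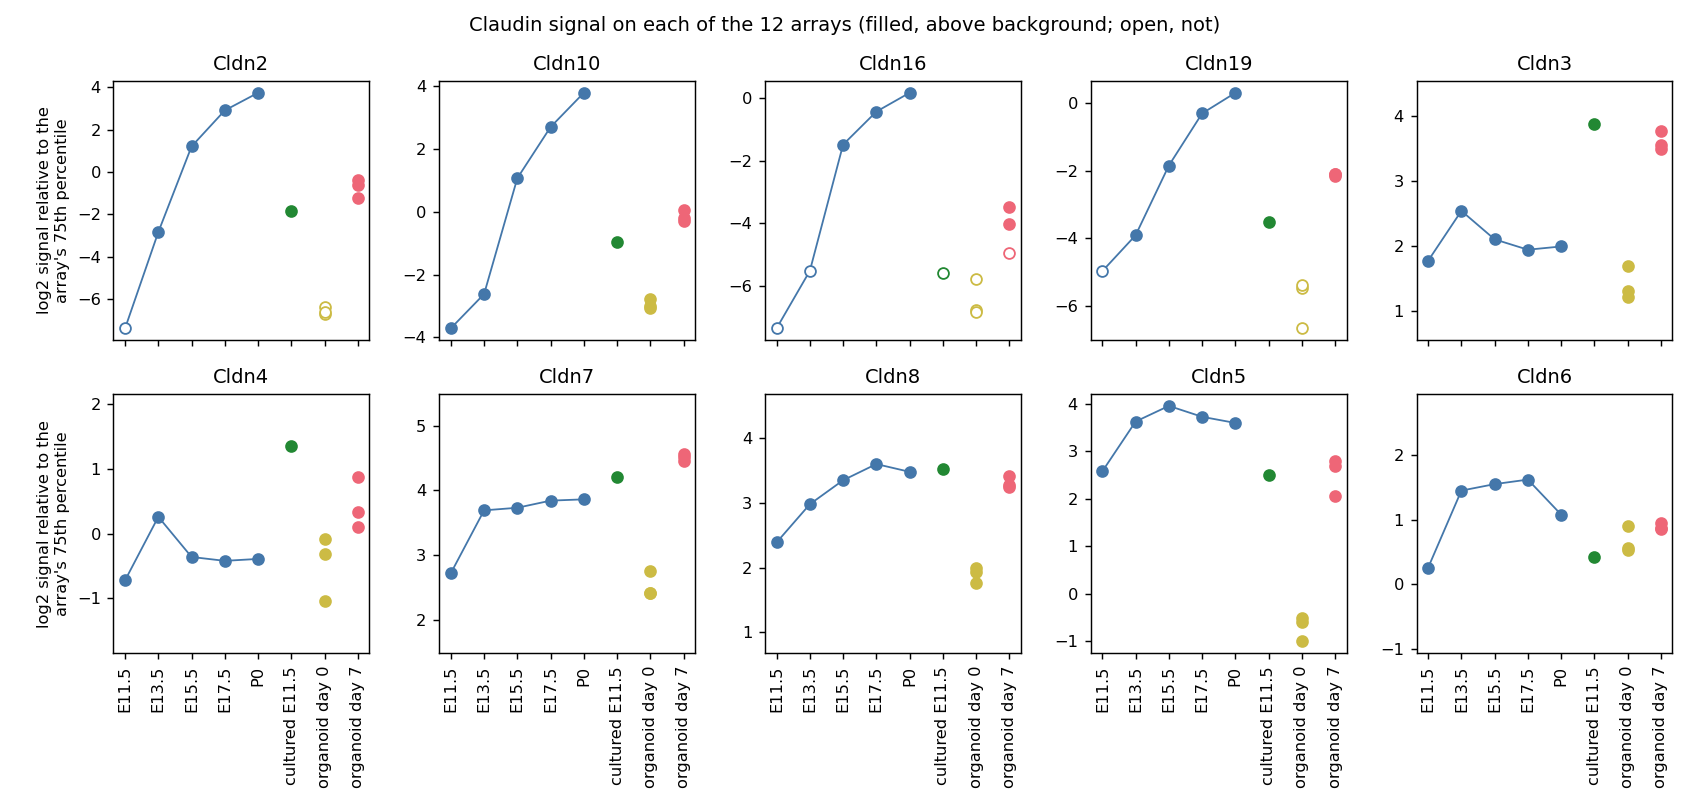
Log2 signal relative to the array's 75th percentile (vertical axis, a separate range in each panel) of the 10 claudins on each of the 12 arrays. Blue points joined by a line are the 5 kidney stages, green is the cultured E11.5 kidney, yellow day 0 and red day 7 organoids, and open points are not above background. Cldn2, Cldn10, Cldn16 and Cldn19 climb with stage, and their day 7 organoid points lie between those of day 0 and P0.

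Culture of the E11.5 kidney for 7 days moved most claudins upward, read from 1 array on each side and so without a test. Cldn2 went from below background to -1.82, at least 11.2-fold higher, and Cldn10 from -3.71 to -0.96, 6.72-fold higher. Cldn3 went from 1.77 to 3.88 (4.34-fold) and Cldn4 from -0.72 to 1.35 (4.20-fold), which put both above every fresh kidney array. Cldn7 went from 2.72 to 4.21 (2.80-fold), Cldn8 from 2.39 to 3.52 (2.20-fold), and Cldn19 from below background to -3.53 (at least 2.71-fold).

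Cldn5 (2.58 and 2.50) and Cldn6 (0.26 and 0.42) differed by under 2-fold, and Cldn16 was below background on both arrays. At 2-fold or more, 7 of the 9 measurable members were higher and 0 lower, against 13% and 8.54% of 17853 genes. With normexp correction the log2 differences were 1.17 for Cldn2, 1.17 for Cldn10 and 0.31 for Cldn19.

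Most claudins rose as organoids were cultured. Between day 0 and day 7, 8 of the 9 tested members rose and 0 fell, against 28.4% of 16628 genes that rose and 41.5% that fell. The median difference was 2.22 for the members and -0.17 for all genes. Cldn2 and Cldn19 went from below background to detected levels, Cldn3, Cldn7, Cldn8 and Cldn10 rose 2.67-fold to 6.95-fold, Cldn5 rose 9.37-fold and Cldn4 1.89-fold.

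Among the pore claudins, Cldn2 was not above background on any day 0 array, at -6.35, -6.71 and -6.62, and was at -0.36, -1.20 and -0.63 on day 7. The groups were far apart, with a fitted difference of 5.83 ± 0.22 (adjusted p = 5.14e-06) and a fold of at least 13.2. The second probe for Cldn2 was above background on 6 of the 12 arrays and gave a smaller difference of 2.23. The mean of both probes gave 4.03 (adjusted p = 3.14e-05). Cldn10 was at -2.77, -2.99 and -3.05 on day 0 and at 0.07, -0.29 and -0.20 on day 7. It rose 6.95-fold (log2 difference 2.80 ± 0.13, adjusted p = 8.03e-06).

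Cldn19 was not above background on day 0 (-5.46, -5.38 and -6.66) and was at -2.09, -2.17 and -2.11 on day 7. The 3 day 7 arrays were almost equal, and the rise was at least 5.01-fold (3.71 ± 0.33, adjusted p = 0.00012). Cldn16, its partner, stayed dim: -5.76, -6.77 and -6.82 on day 0, none above background, and -3.49, -4.95 and -4.02 on day 7, where replicates 1 and 3 were above background and replicate 2 was not. It was therefore not tested, and the day 7 mean was at least 1.23-fold that of day 0. With normexp correction the differences were 1.28 for Cldn2, 1.21 for Cldn10 and 0.33 for Cldn19, and each kept its call.

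Among the distal claudins, Cldn7 was at 2.76, 2.42 and 2.41 on day 0 and at 4.51, 4.56 and 4.45 on day 7. It rose 3.94-fold (1.98 ± 0.12, adjusted p = 2.06e-05). A second Cldn7 probe was above background on 1 array of 12, and the mean of both probes gave 1.21 (adjusted p = 0.0061). Cldn8 was at 1.99, 1.76 and 1.93 and then at 3.28, 3.41 and 3.24, a 2.67-fold rise (1.42 ± 0.09, adjusted p = 3.35e-05). Cldn3 was at 1.69, 1.30 and 1.21 and then at 3.56, 3.78 and 3.50, a 4.64-fold rise (2.22 ± 0.15, adjusted p = 3.62e-05). In all 3 genes the lowest day 7 array was above the highest day 0 array, and the share of all genes separated in this way was not counted.

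Cldn4 was the least certain of the rising claudins. It was at -0.09, -1.04 and -0.31 on day 0 and at 0.33, 0.88 and 0.11 on day 7, so that the groups were close but did not overlap. The 1.89-fold rise (0.92 ± 0.30) had an adjusted p of 0.0289, which became 0.061 without day 0 replicate 2, 0.0512 without day 0 replicate 3, 0.0585 without day 7 replicate 1, 0.0804 without day 7 replicate 2 and 0.193 with slide as a block. Day 7 replicate 2, the highest for Cldn4, also had the highest summed urothelium markers (6 genes, 52.7 against 16.9 and 7.73 in the other day 7 arrays), and their part in its level was not tested.

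Cldn5 was at -0.60, -1.01 and -0.51 on day 0 and at 2.70, 2.05 and 2.80 on day 7. It rose 9.37-fold (3.23 ± 0.23, adjusted p = 4.76e-05). Cldn6 was at 0.90, 0.53 and 0.57 and then at 0.95, 0.86 and 0.88. Its groups overlapped, and the difference of 0.23 ± 0.12 did not pass the test (adjusted p = 0.121), except with normexp correction (0.22, adjusted p = 0.032) and without day 0 replicate 1 (0.35, adjusted p = 0.0167). With slide as a block, which compares day 0 replicate 3 with the day 7 arrays of its own slide, the 7 calls other than Cldn4 held, with differences from 1.38 for Cldn8 to 5.89 for Cldn2.

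**Figure D2:**
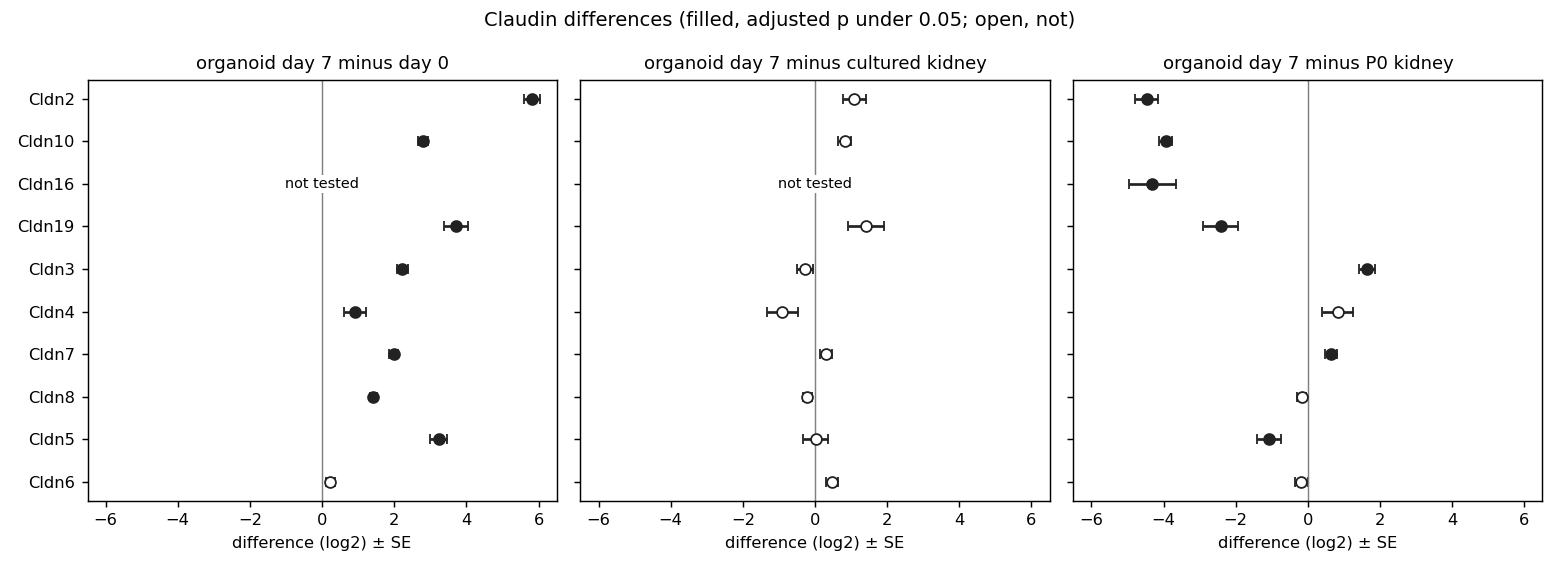
Log2 differences (horizontal axis, points with SE bars from the limma fits) of the 10 claudins for day 7 organoids against day 0 organoids, the cultured kidney and the P0 kidney. Filled points passed an adjusted p of 0.05, and Cldn16 was not tested in the first pair of panels. The first panel lies to the right of 0, the second scatters around it, and in the third the pore claudins lie to the left while Cldn3 and Cldn7 lie to the right.

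At day 0 the organoids differed most from the E11.5 kidney in Cldn5. It was at 2.58 in the E11.5 kidney and between -1.01 and -0.51 in the 3 day 0 organoids, 9.77-fold lower (-3.29 ± 0.34, adjusted p = 0.00207), and within the slide that held E11.5 and day 0 replicates 1 and 2 the difference was -3.39. Cldn10 was 1.71-fold higher at day 0 (0.77 ± 0.18, adjusted p = 0.0244), but dim on both sides, at a mean of -2.94 against -3.71. The day 0 arrays were also dimmer (75th percentile of 126 to 138, against 224 at E11.5). Among members below background on both sides, Cldn2 and Cldn16 differed by 0.81 and 0.89, and Cldn19 by -0.86. Summed proximal tubule markers were 2.65, 2.03 and 0.994 on the day 0 arrays against 1.41 at E11.5. The part of array brightness or of these markers in the Cldn10 difference was not tested.

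Cldn8 was 1.41-fold lower at day 0 (-0.49 ± 0.13, adjusted p = 0.0364). That call was lost without day 0 replicate 3 (adjusted p = 0.0579) and without day 7 replicate 1, 2 or 3, which share in the estimate of spread (0.0717, 0.0533 and 0.065). It was also lost with slide as a block (0.0578) and with scaling to the median (0.11). Cldn3 (-0.37 ± 0.22), Cldn4 (0.24 ± 0.43), Cldn6 (0.41 ± 0.17) and Cldn7 (-0.20 ± 0.17) did not pass the test. Cldn2, Cldn16 and Cldn19 were below background on both sides, and calls of Cldn19 with slide as a block (-0.45, adjusted p = 0.0347) or of Cldn2 with normexp correction (0.58, adjusted p = 0.0215) rest on such signals. With normexp correction Cldn7 was called lower (-0.34, adjusted p = 0.0446). Of 9 tested members 1 was higher and 2 were lower, against 16.8% and 14.5% of 18003 genes.

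After 7 days, no claudin was called different between organoids and the kidney cultured for the same time. None of the 9 tested passed the limma test in either direction, against 3.8% of genes that were higher in organoids and 2.77% that were lower. The lowest adjusted p-values were those of Cldn10 (0.82 ± 0.18, adjusted p = 0.0544), Cldn2 (1.09 ± 0.32, adjusted p = 0.103), Cldn19 (1.41 ± 0.49, adjusted p = 0.139) and Cldn6 (0.47 ± 0.17, adjusted p = 0.146), all with the higher level in organoids. With normexp correction these 4 passed, against 9.99% of genes that were higher. Cldn10 also passed with quantile normalization (0.88, adjusted p = 0.0497), scaling to the median (adjusted p = 0.0333), a filter of every array above background (0.82, adjusted p = 0.0257) and trend and robust moderation (0.82, adjusted p = 0.0342). Cldn19 passed with slide as a block, where its difference was larger (2.65, adjusted p = 0.0145), and without day 0 replicate 3 (1.41, adjusted p = 0.00598). All day 7 arrays were on slide 2 and the kidney arrays on slide 1, so the slide term came only from day 0 arrays. Cldn19 was below background on all of these, and both calls depend on that dim signal. Cldn2 passed without day 7 replicate 2 (1.33, adjusted p = 0.0415).

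Cldn5 differed by 0.02 ± 0.34, Cldn8 by -0.21 ± 0.13, Cldn3 by -0.27 ± 0.22 and Cldn7 by 0.30 ± 0.17. Cldn4 was lower in organoids by 0.91 ± 0.43 on the log2 scale, which did not pass either (adjusted p = 0.242). With a single cultured kidney array, a miss of the threshold does not show that levels were equal. Cldn16 was above background on 2 of 3 day 7 arrays and not in the cultured kidney.

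The change over 7 days of culture was also compared directly between organoid and kidney. Of the 9 tested members Cldn5 was called. The organoid change exceeded the kidney change by 3.31 ± 0.48 (adjusted p = 0.0113). The same test called 8.47% of genes in the positive direction and 6.85% in the negative. Cldn19 had the next largest difference (2.27 ± 0.69, adjusted p = 0.0754), measured from levels below background at the start. It was called with slide as a block (3.1, adjusted p = 0.00639), with trend and robust moderation (2.27, adjusted p = 0.0455) and without day 0 replicate 3 (1.86, adjusted p = 0.00779). All day 7 arrays were on slide 2 and both kidney arrays on slide 1. The slide term therefore again came only from day 0 arrays, on which Cldn19 was below background. With normexp correction Cldn7 (0.69, adjusted p = 0.0161) and Cldn4 (-0.96, adjusted p = 0.0464) were called. For Cldn10 (0.05 ± 0.26), Cldn6 (0.06 ± 0.24) and Cldn3 (0.10 ± 0.30) the changes in both systems were within their error of each other.

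Endothelial markers moved with Cldn5. Cdh5, the cadherin of endothelial junctions, was at 1.72 at E11.5, at -2.96, -3.18 and -3.09 on day 0, and at 1.90, 0.45 and 1.98 on day 7. Day 7 replicate 2 was the lowest of its group for Cdh5 and for Cldn5 alike. Of 7 markers, 6 were lower at day 0 than at E11.5, with a median of -4.80, against 14.5% of all genes. The change over culture was larger in organoids than in kidney for 5 of 7 and smaller for 1, against 8.47% and 6.85% of genes. Kdr, a VEGF receptor, went the other way: it was 0.50 ± 0.12 higher at day 0 (adjusted p = 0.0264), and the summed level of the list, which includes Kdr, was 12 to 13.2 at day 0 and 9.21 to 14.4 at day 7 against 17.4 at E11.5. Tek was not above background on the day 0 arrays. The pattern was not particular to endothelial markers. All 4 ureteric tip markers were lower at day 0 than at E11.5 (median -1.72). Of these 4, 3 had a larger change over culture in organoids and 0 a smaller one (median 1.76). The part of endothelial cell number in the Cldn5 result was not tested.

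**Figure D3:**
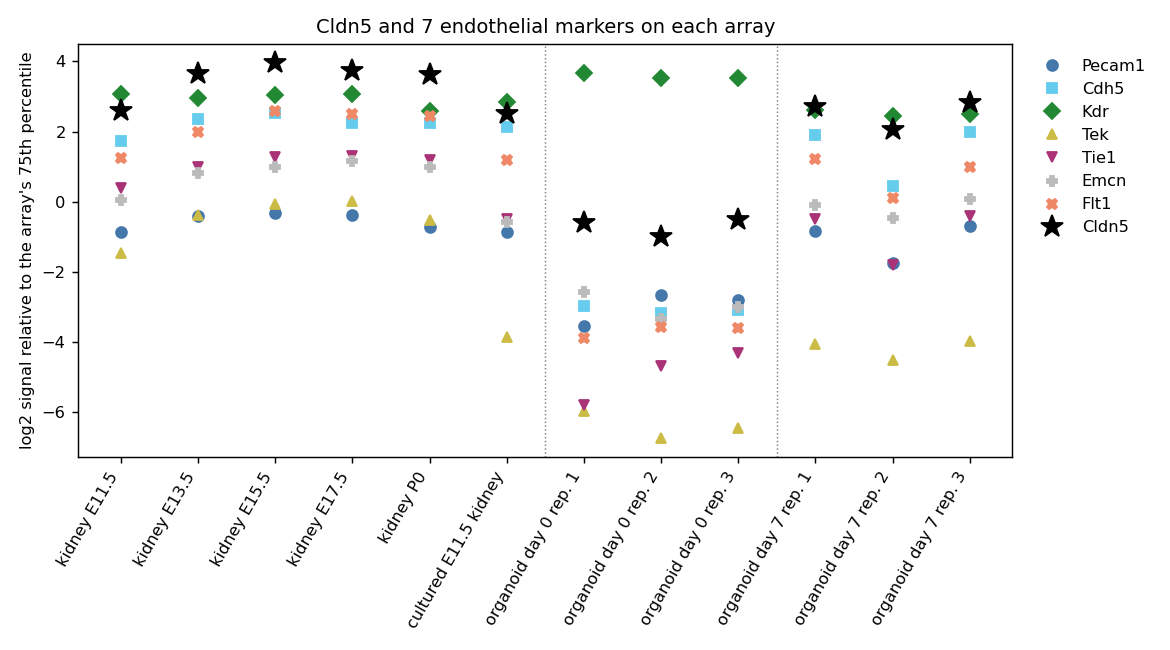
Log2 signal relative to the array's 75th percentile (vertical axis) of Cldn5 (stars) and of 7 endothelial marker genes on each of the 12 arrays. Cldn5 was between -1.01 and -0.51 on the day 0 organoid arrays and at or above 2.05 elsewhere, and 6 of the 7 markers had their lowest values on the same 3 arrays, Kdr being the exception.

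Against the kidney at birth, day 7 organoids were low in pore claudins and high in Cldn3. Cldn2 was 22.2-fold lower (-4.47 ± 0.32, adjusted p = 0.000285), Cldn16 19.9-fold lower (-4.31 ± 0.64, adjusted p = 0.00348) and Cldn10 15.3-fold lower (-3.94 ± 0.18, adjusted p = 8.01e-05). Cldn19 was 5.36-fold lower (-2.42 ± 0.48, adjusted p = 0.0103). On the kidney series, the day 7 levels of Cldn2 and Cldn10 fell between those of E13.5 and E15.5, as did that of Cldn16, and that of Cldn19 fell just under E15.5. With slide as a block the differences were -4.39 for Cldn2, -3.76 for Cldn10, -3.76 for Cldn16 (adjusted p = 0.0542, no longer called) and -1.18 for Cldn19. For Cldn2, Cldn16 and Cldn19 that block rests on day 0 arrays below background. With normexp correction the differences were -2.18 for Cldn16 and -1.53 for Cldn19, both called.

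Markers of the segments were lower too. All 7 proximal tubule markers fell short of P0 with a median of -5.22, and 4 of 6 thick ascending limb markers did, with a median of -2.89. The share of all genes called lower was 17.8%. Summed proximal tubule markers were 18.4 to 27 on day 7 against 288 at P0, and those of the thick ascending limb 6.87 to 9.99 against 91.4. The sodium-glucose cotransporter gene Slc5a2 and its relative Slc5a12 were at or under -4.44 on every day 7 array and at 4.05 and 4.03 at P0. The part of segment cell number in the claudin differences was not tested.

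**Figure D4:**
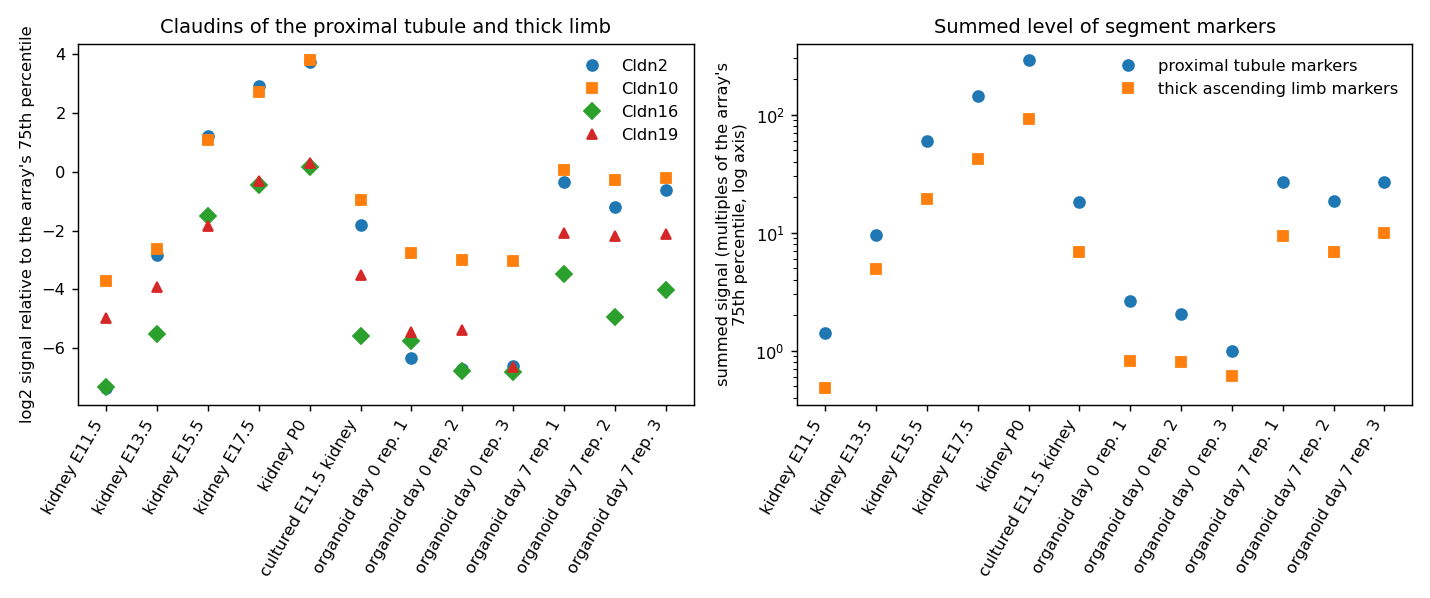
Left, log2 signal relative to the array's 75th percentile of Cldn2, Cldn10, Cldn16 and Cldn19 on each array. Right, the summed signal of 7 proximal tubule and 6 thick ascending limb markers on the same arrays, in multiples of the 75th percentile on a log axis. Both rise with kidney stage, and the day 7 organoids, at 18.4 to 27 for the proximal tubule markers, lie well under P0 at 288.

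None of the distal claudins was called lower than at P0. Cldn3 was at 3.50 to 3.78 on day 7 against 1.99 at P0, 3.09-fold higher (1.63 ± 0.22, adjusted p = 0.00233). Cldn7 was 1.56-fold higher (0.64 ± 0.17, adjusted p = 0.025), a call that was lost without day 7 replicate 1 (adjusted p = 0.0615), replicate 2 (0.0612) or replicate 3 (0.0514) and with slide as a block (0.0671). Cldn4 (0.83 ± 0.43, adjusted p = 0.167) and Cldn8 (-0.17 ± 0.13, adjusted p = 0.338) did not pass, although Cldn4 did with normexp correction (0.72, adjusted p = 0.0292). Of 7 markers of collecting duct principal cells, 4 were called lower than at P0 and 0 higher, with a median of -1.97. All 4 markers of the distal convoluted tubule and all 4 of intercalated cells were lower (medians of -4.24 and -4.29). The share of all genes called lower was 17.8%.

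Cldn5 was 2.11-fold lower than at P0 (-1.08 ± 0.34, adjusted p = 0.0448), which did not hold without day 0 replicate 1 (adjusted p = 0.0672), day 0 replicate 3 (0.0598) or day 7 replicate 1 (0.0653), with slide as a block (0.121), with scaling to the median (0.0623) or with no background filter (0.0693). Cldn6 did not pass (-0.18 ± 0.17, adjusted p = 0.417). Of the 10 members 2 were higher (1 without any single day 7 array) and 5 lower than at P0, against 24.2% and 17.8% of 17937 genes.

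Across the 12 arrays the members fell into loose sets. Cldn2, Cldn10, Cldn16 and Cldn19 had pairwise Pearson correlations of 0.91 to 0.97. Cldn3 correlated at 0.89 with Cldn7 and at 0.86 with Cldn4, its neighbour on chromosome 5, where the genes lie 39280 bases apart (Cldn4 at 134945123 to 134946934 and Cldn3 at 134986214 to 134987476, GRCm38.p6). Cldn3 and Cldn16 correlated at 0.09. The sets overlapped, since Cldn8 correlated at 0.90 with Cldn2, 0.88 with Cldn19, 0.90 with Cldn7 and 0.87 with Cldn5. These values describe arrays that share stages, culture and slides, and low levels in them are near background.

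Among 16177 genes, those with the pattern most like each member by Pearson correlation over the 12 arrays included genes of several segments. For Cldn2 they were Gnai1 (0.997), Xpnpep2 (0.997), a brush border peptidase, and Pdzd3 (0.995). For Cldn10 they were Tmem117 (0.997), Ttc36 (0.994) and Gpd1 (0.992). For Cldn16 they were Slc22a12 (0.992), the urate transporter of the proximal tubule, Aspa (0.982) and Tmem174 (0.981), and for Cldn19 they were Ihh (0.993), Atp6v0a4 (0.989), a proton pump subunit, and Slc16a5 (0.987). Cldn16 and Cldn19 are thick limb genes, yet genes of other segments stood in their lists.

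For Cldn8 the most alike were AI661453 (0.989), Avpr2 (0.988), the vasopressin receptor of principal cells, and Bcam (0.987). For Cldn7 they were Itga3 (0.993), Tbc1d8b (0.992) and Serpine2 (0.991), and for Cldn3 they included Cercam (0.982) and Traf3ip2 (0.978). For Cldn5 they were Cd38 (0.996) and the vascular genes Flt1 (0.992) and Cd34 (0.992). Cldn4, with Tmem47 (0.908) at the top, and Cldn6, with Ndnf (0.902), had no gene as close.

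The other claudins on the array followed the members in part. Of 14, 8 could be tested between day 0 and day 7. Of these, 6 rose and 0 fell, against 28.4% and 41.5% of all genes, with a median of 0.79. Cldn1, a sealing claudin of Bowman's capsule and of skin, was not above background on day 0 and at -3.16, -3.12 and -3.06 on day 7, at least 2.52-fold higher (adjusted p = 3.49e-06). Cldn15, a cation pore best known in the gut, rose by 2.13 and Cldn11, a claudin of myelin and Sertoli cells, by 1.65, while Tmem114, listed on the array as Cldn26, was at least 1.74-fold higher. Cldn12 was level, at 3.04 to 3.12 on day 0 and 3.1 to 3.22 on day 7. Cldn17, Cldn18 and Cldn20 were above background on no array.

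Most partners of claudins in the tight junction rose as well. Of 24 scaffold and membrane partners 16 rose and 2 fell between day 0 and day 7, against 28.4% and 41.5% of all genes, with a median of 0.86. Those that rose most were Esam (15.9-fold), an adhesion molecule of endothelial junctions, the scaffold Tjp3 (9.53-fold), the polarity protein Pard6b (at least 4.32-fold) and occludin, Ocln (4.70-fold). Jam3 fell by 0.58 and Pard3 by 0.43. Against P0, 6 were higher and 4 lower, shares near those of all genes (24.2% and 17.8%). At day 0, 2 of the 24 were higher than at E11.5 and 8 lower, against 16.8% and 14.5% of all genes. Ildr1, of tricellular junctions, was not above background at E11.5 and was at -3.44, -3.69 and -3.67 on day 0, at least 3.27-fold higher (adjusted p = 0.000415).

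Of 12 adherens junction genes 7 rose and 1 fell over organoid culture, against the same 28.4% and 41.5% of all genes, with a median of 0.53. Cdh16, the kidney-specific cadherin, rose 11.4-fold, E-cadherin, Cdh1, 5.87-fold, Cdh6 3.29-fold and Epcam 3.17-fold, whereas Ctnnb1, which encodes beta-catenin, fell 1.90-fold. Of 9 tested genes known to act on claudins 5 rose and 2 fell, against these shares. The epithelial factor Elf3 rose 15.8-fold, Ovol1 4.44-fold, Casr, the calcium-sensing receptor of the thick limb, 4.4-fold, and Grhl2 3.39-fold, while the kinase Wnk1 fell by 0.68 and Ovol2 by 0.45. Casr rose with kidney stage, by 1.57 ± 0.18 per stage (adjusted p = 0.0105), and was 11.8-fold lower on day 7 than at P0 (adjusted p = 0.00978).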

How the data were processed

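Per the file headers, the spot intensity of each Agilent array was background-subtracted and corrected by Feature Extraction 11.5.1.1, whereas the submitters' processing notes name version 10.7.3.1. The authors also deposited a table of log2 values, which equals the log2 processed signal minus 1 constant per array.

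The log2 processed signal minus the array's 75th percentile was used, without outlier spots, with the brightest probe per gene. A gene was tested where all arrays of some group were above background (for the stage trend, any array). Groups were compared with limma 3.58.1 (R 4.3.3), two-sided, with Benjamini-Hochberg adjustment over all genes tested and a threshold of 0.05. The 6 organoid arrays were fitted alone, then with the E11.5 and cultured kidneys (8 arrays) and with P0 (7 arrays). Single kidney arrays were taken to vary as organoid replicates do. Whether organoid replicates were separate cultures is not in the labels, so p-values measure only the spread between these arrays, which may be technical. The scripts were tested on simulated data. A fold is "at least" a value where no array of 1 group was above background, its arrays then being set at the dimmest detected signal or at their own if higher.

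The members, lists and rules were chosen with earlier results of these data known. All members are named, with up to 4 called genes of largest change per list and the 3 genes most like each member, of which 1 is not reported here. Ildr1, Cldn12, Jam3, Pard3, Ctnnb1, Wnk1, Ovol2 and the marker genes were singled out after their values were seen. Genes were named from accessions and symbols through RefSeq (GRCm38.p6). Motifs were searched with Python 3.11.15, and figures drawn with matplotlib 3.10.9. Alternatives were normexp with an offset of 50, quantile normalization, median scaling, the deposited log2 table, averaged probes, background filters, trend and robust moderation, blocks for slide and replicate number, and leaving out single arrays. Protein sequences were not used here.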

Additional observations from a re-analysis of the deposited data

Results flagged for a closer look

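One result was singled out because organoid and kidney differed under the same contrast. The change of Cldn5 over 7 days of culture was 3.31 ± 0.48 larger (log2, adjusted p = 0.0113) in organoids, where it went from a mean of -0.71 to 2.52 (n = 3 each), than in the E11.5 kidney, where it went from 2.58 to 2.50 on 1 array each. The difference kept its call under every alternative tried, at 2.72 to 3.54. Of 7 endothelial markers, 5 differed in the same direction and 1 in the opposite, against 8.47% and 6.85% of genes. Of 4 ureteric tip markers, 3 differed in the same direction and 0 in the opposite. The part of these markers in the Cldn5 difference was not tested.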

How the results depend on the processing

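The rise of 8 members between day 0 and day 7 was 7 to 9 when single arrays were left out, against 25.9% to 28.4% of genes. The replicate numbers did not pair the organoids (correlations of -0.038, -0.193 and -0.03), and with a replicate block the calls other than Cldn4 (adjusted p = 0.0669) held, with 4431 genes higher and 6151 lower. Normexp correction gave 3 members higher at day 0 than at E11.5, against 40.9% of all genes. It gave 4 higher than the cultured kidney on day 7 (9.99% of genes). In the change over culture it gave 2 higher (15%) and 1 lower (28%). Against the cultured kidney, only Cldn10 was higher with quantile normalization (4.73% of genes), median scaling (6.74%) or every array above background (6.16%). It was also the only one with trend and robust moderation (7.05%), and Cldn19 the only one with slide as a block (0.544%). For the change over culture, 2 were higher with each of this last pair (Cldn19 added, 11.1% and 5.75% of genes). Median scaling gave 1 member lower at day 0 (11.4% of genes). With slide as a block (13.2% of genes lower) Cldn8 lost that call (adjusted p = 0.0578) while Cldn19 gained it. Against P0, 3 were higher with normexp (Cldn4 added, 38.8% of genes), and 1 with the mean of probes (23.5%) or slide as a block (10%). Lower were 3 with slide as a block (11.3%). With every array above background, Cldn2, Cldn16 and Cldn19 were not tested. Of the other members, 2 were then lower than P0 (16.6%) and 2 rose with stage (14.1% of genes). Quantile normalization (14.5%) and the mean of probes (11.9%) added Cldn7 (adjusted p of 0.0451 and 0.0395).

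When each array was left out in turn, 1 to 2 members were higher and 1 to 2 lower at day 0 than at E11.5, 0 to 1 higher than the cultured kidney, 1 to 2 higher in the change over culture, 1 to 2 higher and 4 to 5 lower than P0, and 2 to 4 rose with stage. Signs turned for small values and for Cldn19 at day 0 with normexp (0.44, adjusted p = 0.00191, both sides dim). With the mean of probes, Cldn7 was 0.23 at day 0, -0.16 against the cultured kidney, -0.39 in the change over culture and -0.56 against P0, the second probe being below background on 11 arrays. Against the cultured kidney Cldn5 was -0.04 (normexp), -0.05 (quantile), -0.28 (slide), and -0.12 to 0.26 with single arrays left out (-0.07 without day 7 replicate 1), and Cldn3 0.01 (slide). In the change over culture Cldn6 was -0.01 to 0.18 and Cldn10 -0.06 to 0.13 with arrays left out. Stage slopes turned for Cldn3 (0.00 normexp, 0.02 quantile, -0.18 to 0.05 with arrays left out), Cldn4 (0.00 quantile, -0.20 to 0.08), Cldn5 (-0.03 to 0.38) and Cldn6 (-0.11 to 0.42). The cause was not tested. Signals near background limit Cldn2, Cldn16 and Cldn19 at early stages.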
